A study of Saccharomyces cerevisiae with 6 samples.

Results

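The thioredoxin system and the peroxiredoxins of budding yeast (Saccharomyces cerevisiae) were followed through 10 genes: the thioredoxins TRX1, TRX2 and TRX3, the thioredoxin reductases TRR1 and TRR2, and the peroxiredoxins TSA1, TSA2, AHP1, PRX1 and DOT5. They were chosen by gene name in the platform annotation, and all 10 were found, with 1 probe set each, among 5449 measured genes of this species. The tested cultures were an S288C strain of mating type a that carries gcn4-delta, grown with 0.1 mM 3AT (3 arrays, replicates 1 to 3). They were set against S288C wild type of the same mating type, grown with 10 mM 3AT (3 arrays, replicates 1 to 3). All cultures were aerobic chemostats in YNB medium at 30 °C and pH 5 with a dilution rate of 0.10 per hour, in which glucose supply limits growth and 3AT (aminotriazole) inhibits histidine synthesis. GCN4 encodes the activator of amino acid biosynthesis genes. Strain and 3AT concentration change together between the groups, so their effects cannot be told apart. The labels do not say whether replicates came from separate chemostats. The p-values and confidence intervals therefore rest only on the spread of these arrays within their groups, and that spread may be technical.

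Thioredoxins are small proteins whose paired cysteines pass electrons to disulfides in other proteins, and thioredoxin reductases recharge them with electrons from NADPH. Peroxiredoxins reduce hydrogen peroxide and organic peroxides with a reactive cysteine and are in most cases returned to the active state by thioredoxin. In yeast, TRX1, TRX2, TRR1, TSA1, TSA2 and AHP1 act mainly in the cytosol, TRX3, TRR2 and PRX1 in mitochondria and DOT5 in the nucleus. Several of these genes are targets of Yap1 and Skn7, the activators of the response to peroxide. 3AT also inhibits catalase, an enzyme that removes hydrogen peroxide in parallel with the peroxiredoxins.

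Values are RMA intensities on a linear scale, and changes are log2 differences, gcn4-delta minus wild type. GCN4 read 14.5, 213 and 11.4 on the gcn4-delta arrays, of which only replicate 2 was above the background level, against 7312, 7309 and 7248 in wild type. Background, the 95th percentile of probe sets named for genes that did not match S. cerevisiae, lay between 17.9 and 25.2, and median intensities lay between 665 and 712. All 60 values of the 10 genes were above background, by at least 10.2 times. Wild type replicate 1 stood furthest from its group, with a median absolute deviation of 0.192 (log2) from the mean of the other arrays of its group over all genes, against 0.079 to 0.141 on the other 5 arrays. Over the 10 genes the same measure of that array was 0.0674. The 7 genes listed as markers of mating type a cells read 173 to 3713 in gcn4-delta and 161 to 3603 in wild type, and none passed the test. The 3 markers of mating type alpha cells read 39.6 to 260 in gcn4-delta and 30.5 to 259 in wild type, above background on every array, and none passed. The 6 markers of sporulating cells read 29.8 to 279 in gcn4-delta and 25.3 to 251 in wild type, and of these SPR3 rose by 2.10 and IME1 fell by 0.43 (log2, adjusted p = 0.000273 and 0.0240, limma). The IME1 call held only without wild type replicate 1 or 3 among the omissions of 1 array. The part of such cells in the results was not tested.

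None of the 10 genes passed the test between the strains (limma, Benjamini-Hochberg adjusted p under 0.05), with adjusted p from 0.0773 to 0.736. Over all genes 11.3% passed, 5.34% higher and 6% lower. An unadjusted p under 0.05 was reached by 3 of the 10, TRX1, TRR2 and TSA2, against 28.6% of all genes. The estimates lay above 0 for 4 genes and below 0 for 6, with a median of -0.05, against 0.04 over all genes. The median size of the change was 0.17 for the 10 genes and 0.18 over all genes. Each gene's own 95% interval excluded a 2-fold difference in either direction. The widest bounds were 0.559-fold for TRR2 and 1.53-fold for PRX1. For 7 of the genes the interval also excluded a 1.5-fold difference, and the exceptions were TRX3, TRR2 and PRX1, the mitochondrial members. Fewer cells of a kind and less RNA per cell cannot be told apart in bulk cultures, and RMA evens out any change that moves most genes together.

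**Figure D1:**
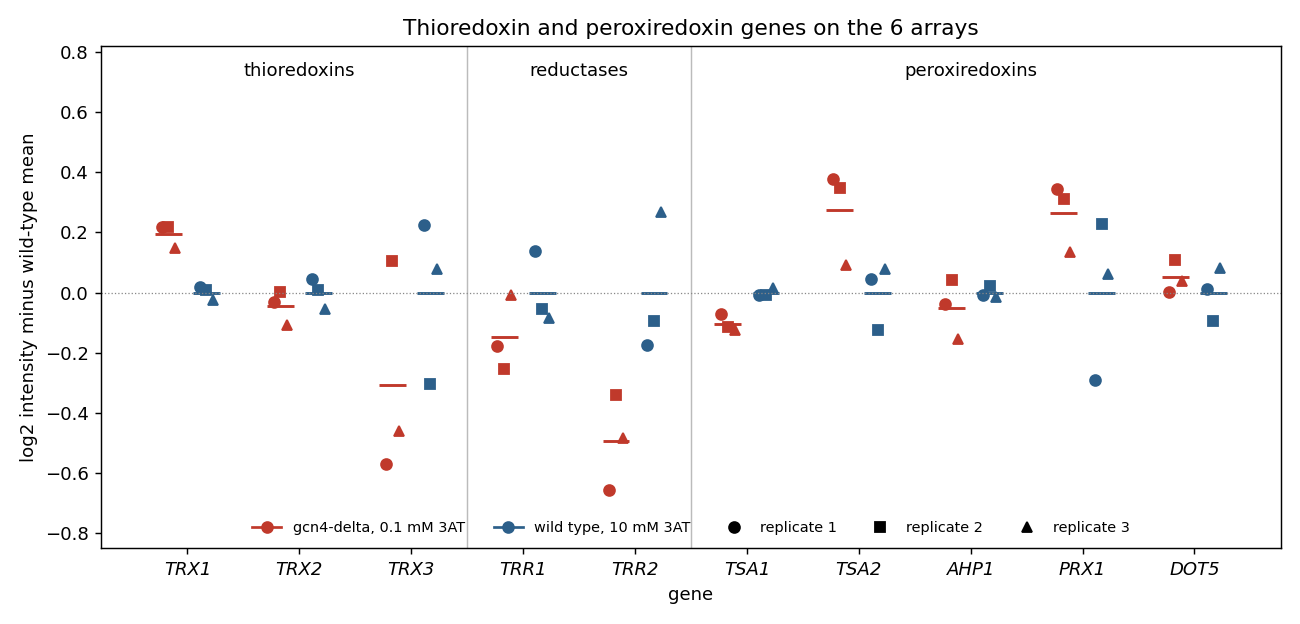
Log2 intensity of each gene on each array minus the gene's wild-type mean (y axis), with gcn4-delta in red left of wild type in blue. Points are arrays, with a shape for each replicate number, and short lines are group means. TRX1 and TSA2 lie higher and TRR2 and TSA1 lower on every gcn4-delta array than on any wild-type array, while the other 6 genes overlap.

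The groups did not overlap for 4 of the 10 genes, 2 with gcn4-delta higher and 2 with gcn4-delta lower. Over all genes 35.7% did not overlap, with 21.1% higher and 14.6% lower, so the count of 4 in 10 is near the background.

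Among the thioredoxins, TRX1 (YLR043C), a cytosolic thioredoxin, read 4063, 4061 and 3869 on the gcn4-delta arrays, against 3537, 3512 and 3436 in wild type. All gcn4-delta arrays lay above all wild-type arrays, and the spread within each group was small. The means were 3998 ± 111 in gcn4-delta and 3495 ± 53.1 in wild type (SD, n = 3 each). This is a log2 change of 0.19 ± 0.08 (SE, 95% interval 0.01 to 0.37, adjusted p = 0.149, limma). With any 1 array left out it was 0.18 to 0.22.

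TRX2 (YGR209C), the sister cytosolic thioredoxin and a classical Yap1 target, read 5700, 5823 and 5404 in gcn4-delta, against 6007, 5850 and 5609 in wild type. The groups overlapped, with gcn4-delta replicate 3 lowest and wild type replicate 1 highest. Its log2 change was -0.05 ± 0.08 (SE, 95% interval -0.23 to 0.14, adjusted p = 0.736, limma). Leaving out gcn4-delta replicate 3 gave -0.01, leaving out wild type replicate 1 gave -0.02 and leaving out wild type replicate 3 gave -0.07. TRX1 and TRX2 are paralogs, and neither probe set carries the suffix that marks shared targets on this kind of array. How far either set binds the sister transcript was not tested.

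TRX3 (YCR083W), the mitochondrial thioredoxin, read 974, 1555 and 1051 in gcn4-delta, against 1688, 1170 and 1527 in wild type. Replicate 2 was the odd array of both groups, high among the gcn4-delta arrays and low among the wild-type arrays, and the groups overlapped. Its SD on the log2 scale was 0.36 in gcn4-delta and 0.27 in wild type, against medians of 0.11 and 0.15 over all genes. The log2 change was -0.31 ± 0.21 (SE, 95% interval -0.81 to 0.20, adjusted p = 0.383, limma). Leaving out gcn4-delta replicate 2 or 1 gave -0.51 or -0.18, and leaving out wild type replicate 2 or 1 gave -0.46 or -0.20, in no case past the threshold.

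Of the reductases, TRR1 (YDR353W), the cytosolic enzyme that recharges TRX1 and TRX2 proteins with electrons from NADPH, read 3204, 3035 and 3601 in gcn4-delta, against 3983, 3491 and 3421 in wild type. Only gcn4-delta replicate 3 reached the wild-type range. The means were 3280 ± 290.5 in gcn4-delta and 3631 ± 306 in wild type (SD, n = 3 each). TRR1 thus had a log2 change of -0.15 ± 0.11 (SE, 95% interval -0.40 to 0.10, adjusted p = 0.396, limma). Without wild type replicate 1 the change was -0.08, and without gcn4-delta replicate 2 it was -0.09.

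TRR2 (YHR106W), the mitochondrial reductase, had the largest change of the 10 genes and the lowest p. It read 613, 763 and 690.4 in gcn4-delta, against 856, 905 and 1164 in wild type. Every gcn4-delta array lay below every wild-type array, and wild type replicate 3 was the highest. The means were 689 ± 75.2 in gcn4-delta and 975 ± 165 in wild type (SD, n = 3 each). The log2 change was -0.49 ± 0.15 (SE, 95% interval -0.84 to -0.15, adjusted p = 0.0773, limma). Over all genes 86.3% had a smaller change. TRR2 missed the threshold in each fit that left out 1 array. The change was -0.36 without wild type replicate 3 (adjusted p = 0.150) and -0.58 without wild type replicate 1 (adjusted p = 0.0516).

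Of the cytosolic peroxiredoxins, TSA1 (YML028W), the main one in growing cells, read 8443, 8199 and 8151 in gcn4-delta, against 8838, 8826 and 8974 in wild type. The groups did not overlap, and the arrays of each lay close together, with SDs on the log2 scale of 0.027 in gcn4-delta and 0.013 in wild type. The means were 8264 ± 157 in gcn4-delta and 8879 ± 82.3 in wild type (SD, n = 3 each), a log2 change of -0.10. limma draws the variance of each gene towards that of all genes, which gave TSA1 an SE of 0.07, a 95% interval of -0.28 to 0.07 and an adjusted p of 0.393. With any 1 array left out the change was -0.12 to -0.09.

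TSA2 (YDR453C), its stress-inducible close copy, read 303, 297 and 249 in gcn4-delta, against 240.5, 214 and 246 in wild type. The groups did not overlap, but gcn4-delta replicate 3 and wild type replicate 3 were only narrowly apart. The means were 283 ± 29.8 in gcn4-delta and 234 ± 17.2 in wild type (SD, n = 3 each). This gave a log2 change of 0.27 ± 0.11 (SE, 95% interval 0.01 to 0.54, adjusted p = 0.164, limma). TSA2 lay among the lowest 25% of probe sets by mean log2 intensity. How far its probe set binds the TSA1 transcript, which read far higher, was not tested. The estimates of TSA1 and TSA2 thus had opposite signs, as did those of TRX1 and TRX2. Whether the members of either pair differ in their change was not tested.

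AHP1 (YLR109W), a peroxiredoxin that prefers alkyl hydroperoxides, read 9345, 9867 and 8625 in gcn4-delta, against 9542, 9749 and 9495 in wild type. The wild-type arrays lay inside the range of the gcn4-delta arrays. The log2 change was -0.05 ± 0.08 (SE, 95% interval -0.25 to 0.15, adjusted p = 0.722, limma), and without gcn4-delta replicate 3 it was 0.0012.

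PRX1 (YBL064C), the mitochondrial peroxiredoxin, read 3807, 3724 and 3299 in gcn4-delta, against 2454, 3515 and 3136 in wild type. Wild type replicate 1 was far below the other arrays, and wild type replicate 2 lay inside the gcn4-delta range. The means were 3610 ± 273 in gcn4-delta and 3035 ± 538 in wild type (SD, n = 3 each). Its log2 change was 0.26 ± 0.15 (SE, 95% interval -0.08 to 0.61, adjusted p = 0.283, limma). The change was 0.12 without wild type replicate 1 (adjusted p = 0.502) and 0.38 without wild type replicate 2 (adjusted p = 0.148).

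DOT5 (YIL010W), the nuclear peroxiredoxin, read 919, 990.4 and 943 in gcn4-delta, against 926, 860.2 and 970.3 in wild type. The groups overlapped in part, with wild type replicate 2 lowest and gcn4-delta replicate 2 highest. The log2 change was 0.05 ± 0.09 (SE, 95% interval -0.15 to 0.25, adjusted p = 0.727, limma). With any 1 array left out it was 0.0036 to 0.09, lowest without wild type replicate 2 and highest without wild type replicate 3.

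**Figure D2:**
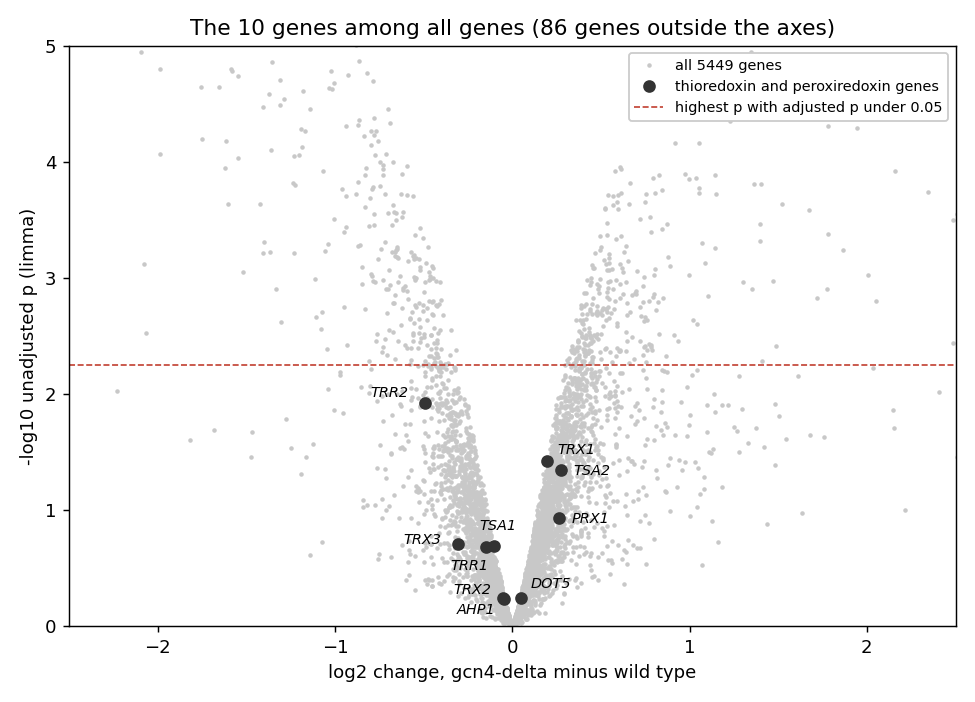
Log2 change, gcn4-delta minus wild type (x axis), against -log10 of the unadjusted limma p (y axis) for all 5449 genes in grey and the 10 thioredoxin and peroxiredoxin genes in black, with 86 genes outside the axes. The dashed line marks the largest unadjusted p among genes that passed the test, and all 10 genes lie below the line, with TRR2 nearest to it.

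The mitochondrial members had the largest SEs, which reflect how far the arrays of a group lie apart. Whether this goes with their place in the cell was not tested. The SE of the log2 change was 0.15 to 0.21 for the 3 mitochondrial members and 0.07 to 0.11 for the 7 others, against a median of 0.11 over all genes. The mitochondrial estimates did not share a sign, with TRX3 and TRR2 below 0 and PRX1 above.

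Within the groups, some members deviated from their group means on the same arrays. As a description over 6 arrays, whose deviations share the normalization, the highest values of Pearson's r among the 45 pairs were 0.94 for TRX1 with TRX2, 0.83 for TRX1 with AHP1, 0.82 for TRX3 with DOT5, 0.77 for TRR2 with DOT5 and 0.76 for TRX2 with AHP1. TRX1, TRX2 and AHP1 all read lowest of their group on gcn4-delta replicate 3, as did TSA1, TSA2 and PRX1. TRR1 went the other way on that array and was highest there. Its deviations had r of -0.74 with AHP1 and -0.83 with PRX1. On gcn4-delta replicate 3 the median deviation of the 10 genes from the other gcn4-delta arrays was -0.08, against 0.06 over all genes, and 2 of the 10 lay above the other arrays' mean.

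The genes whose log2 values ran most like those of TRR2 over the 6 arrays were ECM21 (r = 0.995), CAR2 (0.987), SNC1 (0.984), XYL2 (0.979) and ATG33 (0.970). Their log2 changes were -0.58, -1.11, -0.16, -0.25 and -0.46 in that order. They were chosen for following TRR2, which was lower on every gcn4-delta array, so these signs follow from the choice.

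**Figure D3:**
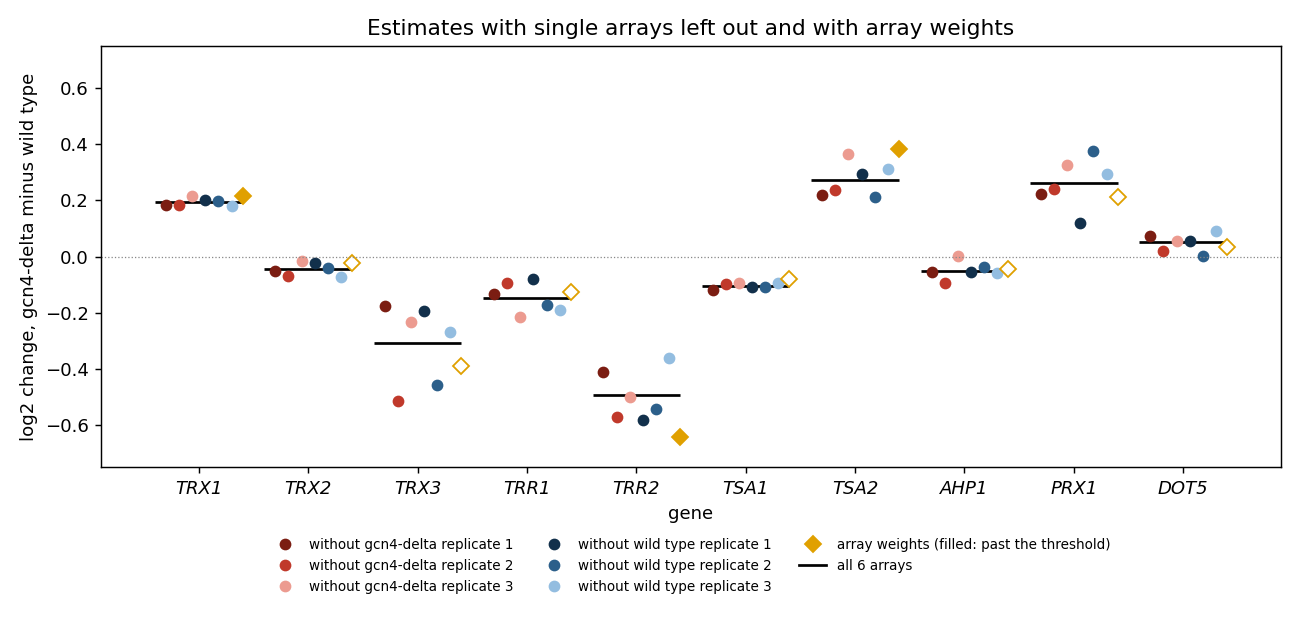
Log2 change, gcn4-delta minus wild type (y axis), of each gene with all 6 arrays (black line), with each array left out in turn (circles) and with estimated array weights (diamonds, filled where the adjusted p was under 0.05). TRX1 and TSA1 barely move, TRX3, TRR2 and PRX1 move most, and no omission of an array takes any of the genes past the threshold.

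One alternative changed the calls. With array weights estimated from the data, TRR2 passed at -0.64 (adjusted p = 0.0118, limma), TSA2 at 0.38 (adjusted p = 0.0267) and TRX1 at 0.21 (adjusted p = 0.0396). In that fit 26.5% of all genes passed, so 3 of 10 is near its background. It gave gcn4-delta replicate 1 a weight of 7.06 and the other 5 arrays weights of 0.246 to 1.21, with wild type replicate 1 lowest.

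The partners of the thioredoxin system were followed in 6 lists of linked genes, written with earlier results of these data known. Of 61 measured genes 15 passed the test, beside 11.3% of all genes. The counts of each list stand beside shares over all genes of 5.34% higher and 6% lower. Leaving out gcn4-delta replicate 2 or 1 gave 5 or 6 calls, in fits where 258 or 220 of all genes passed. All other omissions of 1 array gave 11 to 18, where 372 to 713 of all genes passed. With all 6 arrays 618 genes passed, so the list counts fell along with those of all genes. Among enzymes that take electrons from thioredoxin, and related repair enzymes, 1 of 9 fell, 1 rose and 7 did not pass (median 0.05). MET16, the reductase of sulfate assimilation that depends on thioredoxin, read 853, 858 and 1186 in gcn4-delta, against 2825, 2218 and 2343 in wild type. It fell by 1.36 ± 0.16 on the log2 scale (SE, adjusted p = 0.00337, limma). RNR1, the large subunit of ribonucleotide reductase, rose by 0.49 (adjusted p = 0.0179, limma), a call that held only without wild type replicate 1 or 2 among the omissions.

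**Figure D4:**
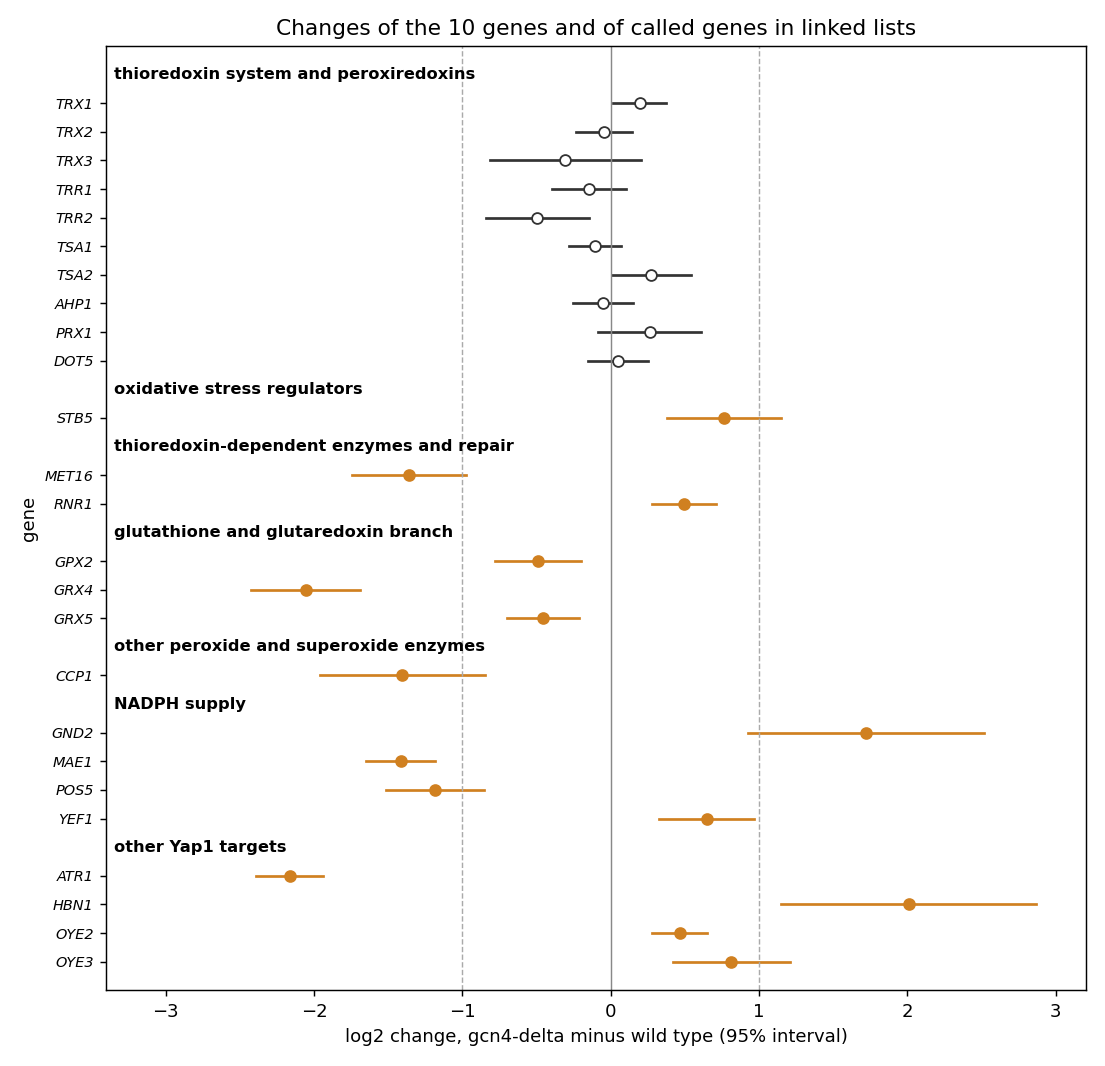
Log2 change, gcn4-delta minus wild type, with its 95% interval (x axis) for the 10 thioredoxin and peroxiredoxin genes in black and for the genes of the 6 linked lists that passed the test in orange. Filled points passed at adjusted p under 0.05, and dashed lines mark a 2-fold difference. All 10 black intervals lie inside the dashed lines.

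In the glutathione and glutaredoxin branch, which shares the work of disulfide reduction with thioredoxin, 3 of 18 genes fell, 0 rose and 15 did not pass (median 0.07). GRX4, a glutaredoxin that takes part in iron signalling, read 428, 429.5 and 481 in gcn4-delta, against 1473, 2181 and 1984 in wild type, and fell by 2.06 (adjusted p = 0.000416, limma). GPX2 fell by 0.49 (adjusted p = 0.0476) and the mitochondrial glutaredoxin GRX5 by 0.46 (adjusted p = 0.0350). The GPX2 call held only without wild type replicate 1, and that of GRX5 only without wild type replicate 2.

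Among other peroxide and superoxide enzymes 1 of 6 fell and 5 did not pass (median -0.34). CCP1, the mitochondrial cytochrome c peroxidase, read 922, 1195 and 1425 in gcn4-delta, against 3924, 2295 and 3235 in wild type. It fell by 1.40 (adjusted p = 0.0129, limma), a call lost without gcn4-delta replicate 2 (adjusted p = 0.0556). The catalase genes CTT1 and CTA1, whose products 3AT inhibits, were at -0.18 and -0.50 and did not pass (adjusted p = 0.829 and 0.215, limma). CTA1 read low, at 34.7, 30.9 and 33.6 in gcn4-delta, against 67.7, 34.3 and 43.7 in wild type. Background lay between 17.9 and 25.2, and the filter on the lowest 25% of probe sets removed CTA1. CTA1 was at -0.23 with wild type replicate 1 left out and at -0.81 after quantile normalization (adjusted p = 0.0510), and did not pass in either fit. With wild type replicate 1 left out, CTT1 did pass, at -0.78 (adjusted p = 0.0156, limma).

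Of 13 genes that supply NADPH, the electron source of the reductases, 2 fell and 2 rose (median 0.04). The mitochondrial malic enzyme gene MAE1 fell by 1.42 and POS5, the mitochondrial NADH kinase, by 1.18 (adjusted p = 0.000296 and 0.00322, limma). GND2 of the pentose phosphate pathway rose by 1.72 and YEF1, an NADH kinase, by 0.65 (adjusted p = 0.0219 and 0.0266). The GND2 call was lost without gcn4-delta replicate 1 or 2, and the YEF1 call held only without wild type replicate 1 or 2.

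Among 8 regulators of the oxidative stress response 1 rose and 7 did not pass (median 0.07). It was STB5, an activator of NADPH-producing genes, at 0.76 (adjusted p = 0.0284, limma), a call lost without gcn4-delta replicate 1 or 2 or wild type replicate 2. The genes of the activators that act on the thioredoxin system did not pass, with YAP1 at -0.09 (adjusted p = 0.467) and SKN7 at -0.05 (adjusted p = 0.742).

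Of 7 measured genes in a list of other Yap1 targets, 3 rose, 1 fell and 3 did not pass (median 0.26). The aminotriazole exporter gene ATR1 fell by 2.17 (adjusted p = 6.41e-05, limma). HBN1, of the nitroreductase family, and the old yellow enzyme genes OYE3 and OYE2 rose by 2.01, 0.81 and 0.46 (adjusted p = 0.0170, 0.0251 and 0.0129). The 3 calls of genes that rose were lost without gcn4-delta replicate 1 or 2, and that of OYE3 also without wild type replicate 2.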

How the data were processed

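The deposited intensity values, 1 per probe set and array on a linear scale, are the output of RMA per the submitters' processing notes. Neither its version nor the array build is stated in the sources at hand. Of 10928 probe sets, 5498 had a single name whose gene identifier matched S. cerevisiae in the R64 reference table, covering 5449 genes. The brightest probe set stood for a gene. The 95th percentile of 1746 named probe sets of other genes served as background.

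log2 of the deposited intensities was fitted with limma 3.58.1 in R 4.3.3 (lmFit, eBayes, no covariates), and p-values were adjusted by Benjamini-Hochberg over 5498 probe sets, with a threshold of 0.05. Intervals are at 95% for each gene alone. Alternatives were a replicate block, each array left out, quantile normalization again, median centring, filters on low values, trend and robust variances, array weights, averaging the probe sets of each gene and a threshold of 0.01. Deviations from group means of same-numbered arrays correlated at -0.339, -0.385 and -0.228, so these arrays did not deviate together. Deviations sum to 0 within a group, and arrays with different numbers were not compared. These values therefore cannot show whether a replicate number marks a shared batch, which the labels do not state.

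Members were set by gene name. The lists of linked genes were written with earlier results of these data known. Text names all 10 members, GCN4, CTT1, CTA1, list genes past the threshold, and the 5 genes most correlated with the member of lowest p. YAP1 and SKN7 were added after their values were seen. OSI1 of the Yap1 list was not measured. Sequences and motifs were not analysed here. Plots used Python 3.11.15 and matplotlib 3.10.9.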

Additional observations from a re-analysis of the deposited data

How the results depend on the processing

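For each of the 10 genes except TSA2, which the filter on the lowest 25% of probe sets removed, 14 alternatives were run. The replicate block, the filters on low values, trend and robust variances and averaging of probe sets cannot change these estimates. Their direction was thus fixed in those refits, and only the adjusted p could move. Of all 139 refits, 135 kept the direction and the side of the threshold. The exceptions were AHP1, at 0.0012 without gcn4-delta replicate 3 (-0.10 to 0.0012 over the omissions of 1 array), and TRX1, TRR2 and TSA2, which passed with array weights at 0.21, -0.64 and 0.38. The estimation of these weights stopped before it converged. With array weights, 3 of the 10 genes (2 higher, 1 lower) and 1443 of all genes (829 higher, 614 lower) passed, against 0 and 618 (291 higher, 327 lower) with equal weights. Of the 10 genes 0 also passed with each array left out and at a threshold of 0.01, where 224 of all genes passed (61 higher, 163 lower). With 1 array left out, 220 to 713 of all genes passed, 62 to 355 higher and 158 to 358 lower.

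The replicate block, on numbers that the labels do not tie to a shared batch, left 210 genes (57 higher, 153 lower) and 0 of the 10. With the block the linked lists had 6 calls, against 15 without it. Unchanged were 1 thioredoxin-dependent enzyme, 2 NADPH genes and 1 Yap1 target, all lower. The counts that changed became 0 regulators, 0 thioredoxin-dependent enzymes higher and 1 glutathione gene lower. They also became 0 other peroxide enzymes lower, 0 NADPH genes higher and 1 Yap1 target higher. With 1 array left out the counts that changed with the block ran 0 to 1, 0 to 1, 1 to 3, 0 to 2, 0 to 2 and 0 to 3, in that order. Thioredoxin-dependent enzymes lower numbered 1 to 2 and glutathione genes higher 0 to 1. CTT1 ran from -0.78 to 0.16 over the omissions, and was above 0 without wild type replicate 2 (0.075) or 3. The number of arrays, 3 a group, limits the precision of all values. All 60 values of the 10 genes were above background.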
